A study of Mus musculus with 20 samples.

Results

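The genes described here encode proteins of the lipid droplet surface and regulators of the lipase that empties it. They were the 10 rows of the liver count table whose symbol was Plin2, Plin3, Plin4, Plin5, Cidea, Cideb, Cidec, G0s2, Hilpda or Pnpla2, out of 20914 genes in all. Of these 10, 8 passed the filter on low counts and were among the 13670 genes tested, while Cidea and G0s2 did not. The lipid droplet is the organelle in which a hepatocyte stores triglyceride and cholesteryl ester. Perilipins coat its surface and limit the access of lipases, proteins of the CIDE family move lipid between droplets or into lipoproteins, and Pnpla2 (adipose triglyceride lipase, ATGL) starts the hydrolysis of stored triglyceride. G0s2 and Hilpda inhibit Pnpla2, and Abhd5 activates it.

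Whole-liver RNA, taken from the left lateral lobe, was sequenced in 20 males of 8 weeks of age, labelled as strain LiB12cKO. The 10 KO mice had the genotype HSD17B12lox/lox;Alb-CreCre/WT and the 10 WT mice HSD17B12lox/lox;Alb-CreWT/WT, so both groups carried the floxed alleles of Hsd17b12, a 3-ketoacyl-CoA reductase of fatty acid elongation. Cre expression came from an albumin promoter, a driver of hepatocytes. Since Cre was present in the KO group only, its own effect and that of the deletion cannot be told apart. The series title relates loss of the gene to lipid droplet expansion.

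Libraries held 16693195 to 24895938 assigned fragments in KO and 19676907 to 29124124 in WT. Hsd17b12 averaged 47.8 ± 2.39 CPM (counts scaled to 1000000 fragments of TMM-corrected library size) in KO livers and 152 ± 18.5 CPM in WT livers (SD, n = 10 each), and the ranges were apart. Differences were tested with edgeR's quasi-likelihood test after TMM scaling, which assumes that most genes do not differ, and p-values were adjusted by Benjamini-Hochberg over all 13670 genes. Fold changes are KO over WT on the log2 scale. Scaling by library size alone moved the median of all genes to 0.44, against -0.025 with TMM, so the direction of small changes rests on the scaling. The summed level of 12 macrophage markers was 295 to 509 CPM in KO and 132 to 243 CPM in WT, and that of 10 hepatocyte markers 52047 to 65152 CPM in KO and 86148 to 120035 CPM in WT. At an adjusted p under 0.05 with TMM, 6 of 10 stellate cell markers and 10 of 12 macrophage markers were higher. All 10 hepatocyte markers were lower. With library size alone, 7 of 10 stellate cell and 11 of 12 macrophage markers were higher, and 6 of 10 hepatocyte markers lower. Over all tested genes, 28.2% were higher and 31.0% lower with TMM, and 68.4% and 6.71% with library size alone. In whole liver, fewer cells of a type and less RNA per cell cannot be told apart, and the part of these shifts in the results below was not tested.

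With TMM, 4 of the 8 tested genes were higher in KO livers (Plin2, Plin3, Cidec and Hilpda), 1 was lower (Cideb), and Plin4, Plin5 and Pnpla2 did not pass the test. At that threshold, an adjusted p under 0.05, 59.2% of all tested genes were called, 28.2% higher in KO and 31.0% lower. With library size alone, 6 were higher (adding Plin5 and Pnpla2) and 0 were lower (edgeR, and 0 at an unadjusted p under 0.05), Cideb being at 0.0092 on the log2 scale. Over all tested genes that scaling called 75.1%, of which the higher ones made up 68.4% and the lower ones 6.71% of genes tested. Cidec, Plin3 and Cideb were the tested genes whose KO and WT values did not overlap. Among the tested genes, 7.10% had every KO liver above every WT liver, and 6.47% had every KO liver below.

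**Figure D1:**
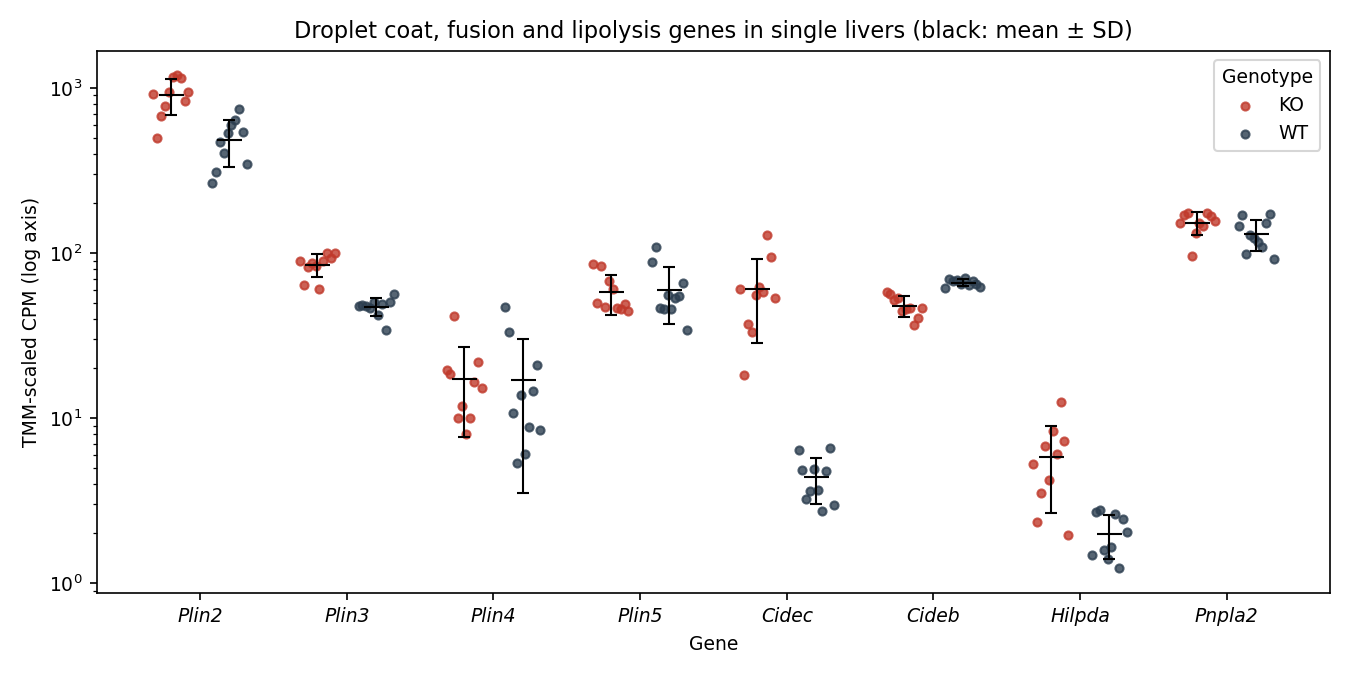
Level of each gene in CPM (log axis) in the 10 KO livers (left) and the 10 WT livers (right), with 1 point a mouse. Cidec lies between 18.3 and 129 CPM in KO, above every WT liver.

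Of the coat genes, Plin2, which covers hepatocyte droplets and whose protein is stabilised by them, had the highest level (chromosome 4, 86656565 to 86670059, minus strand, 8 exon blocks). It was 494.7 at lowest, 929.7 at the median and 1191 CPM at highest in KO livers, against 264.2, 500.1 and 746.1 CPM in WT livers. Its log2 fold change was 0.91 (SE 0.18, adjusted p = 0.00021, edgeR), and 8 of 10 KO livers lay above the highest WT liver. Plin3, which is recruited to new droplets from the cytosol, had 60.8, 87.7 and 100.6 CPM in KO livers, against 34.2, 48.0 and 56.7 CPM in WT livers (lowest, median and highest). Its log2 fold change was 0.84 (SE 0.092, adjusted p = 8.21e-08, edgeR), with no overlap between the groups. KO_391 was the lowest KO liver for Plin2, and it also had the lowest summed macrophage markers of that group, whose part in the result was not tested. The log2 fold change of Plin2 without it was 1.00 (adjusted p = 2.9e-05, edgeR). Plin3 lies on chromosome 17 at 56278962 to 56290511, minus strand, in 8 exon blocks.

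Plin4 and Plin5 lie side by side on mouse chromosome 17, at 56100591 to 56109802 and 56111601 to 56117548 on the minus strand, with 1798 bases between them. Plin5, which joins droplets to mitochondria in oxidative tissues, ranged over 44.3 to 86.1 CPM in KO livers (median 49.3) and 34.0 to 108.3 CPM in WT livers (median 54.0). Its log2 fold change was -0.045 (SE 0.19, adjusted p = 0.853, edgeR). Plin4, a perilipin best known from adipose tissue and muscle, ranged over 7.95 to 41.3 CPM in KO livers (median 15.9) and 5.37 to 46.8 CPM in WT livers (median 12.3). Its log2 fold change was 0.022 (SE 0.39, adjusted p = 0.966, edgeR). Both genes overlapped widely between the groups, and the tests do not show that their levels were alike. The highest WT value of Plin4 came from WT_389, which held 226 counts of the adipocyte genes Adipoq, Plin1, Retn and Cfd, against 1 to 15 in KO livers and 0 to 22 in the other WT livers. Without it, the log2 fold change of Plin4 was 0.34 (adjusted p = 0.419, edgeR). The next WT value of Plin4, 33.1 CPM, came from WT_390, which held 0 counts of those adipocyte genes. The whole list of 10 adipocyte markers, of which 9 were among the counted genes, had its highest WT sum in WT_429. That sum averaged 4461 CPM in WT livers, where Pck1 averaged 3399 CPM and Car3 1031 CPM, so it mainly follows these genes. Of the other listed genes, Fabp4 and Nnat were highest among WT livers in WT_389. Pck1, Car3 and Lipe were highest in other WT livers. The part of adipocyte RNA in Plin4 was not tested.

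Promoters are shown for a coat gene that rose and for the neighbouring pair that did not pass the test. Each is RefSeq's 250 bases before the annotated start on GRCm38.p6 (mm10), 5′ to 3′, and capitals mark TATAA. They are Plin2 at chr4:86670060-86670309, Plin4 at chr17:56109783-56110032 and Plin5 at chr17:56117549-56117798, all on the minus strand, and 20 bases of the Plin4 window are exon in the deposited annotation.
Plin2: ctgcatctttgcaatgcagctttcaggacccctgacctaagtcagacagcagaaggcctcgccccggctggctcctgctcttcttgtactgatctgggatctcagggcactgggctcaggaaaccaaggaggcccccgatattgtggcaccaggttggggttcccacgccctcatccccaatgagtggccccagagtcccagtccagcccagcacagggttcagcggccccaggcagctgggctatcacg
Plin4: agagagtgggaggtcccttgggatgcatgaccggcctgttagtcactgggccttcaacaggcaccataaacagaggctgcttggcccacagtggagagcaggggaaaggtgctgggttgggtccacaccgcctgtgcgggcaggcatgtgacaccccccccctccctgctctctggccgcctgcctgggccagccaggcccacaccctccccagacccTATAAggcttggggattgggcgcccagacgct
Plin5: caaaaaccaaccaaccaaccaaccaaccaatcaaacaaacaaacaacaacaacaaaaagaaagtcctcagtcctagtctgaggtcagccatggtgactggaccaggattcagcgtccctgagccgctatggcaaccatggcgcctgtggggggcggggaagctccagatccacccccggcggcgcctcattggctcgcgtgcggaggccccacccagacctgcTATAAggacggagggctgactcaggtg
Of 12 windows for 9 members, TATAA (letters chosen after the windows were read) was found in 4, near the start in Plin4 and Plin5 (first base at -32 and -27). Plin5 has a second annotated start, and the window before that start, not shown, held no TATAA. Both strands of 32851 promoter windows of that length were searched, and 22.8% held it. The direct repeat bound by PPAR with RXR, AGGNCA given again after 1 further base, was found in no window of the members and in 0.338% of all windows. The hypoxia core ACGTG was found in 1 window, of Hilpda, and in 16.6% of all windows, and the E-box CACGTG, which contains it, in none of the members' and in 6.02% of all. A match is a description of letters, and an absent match says nothing of the factor.

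**Figure D2:**
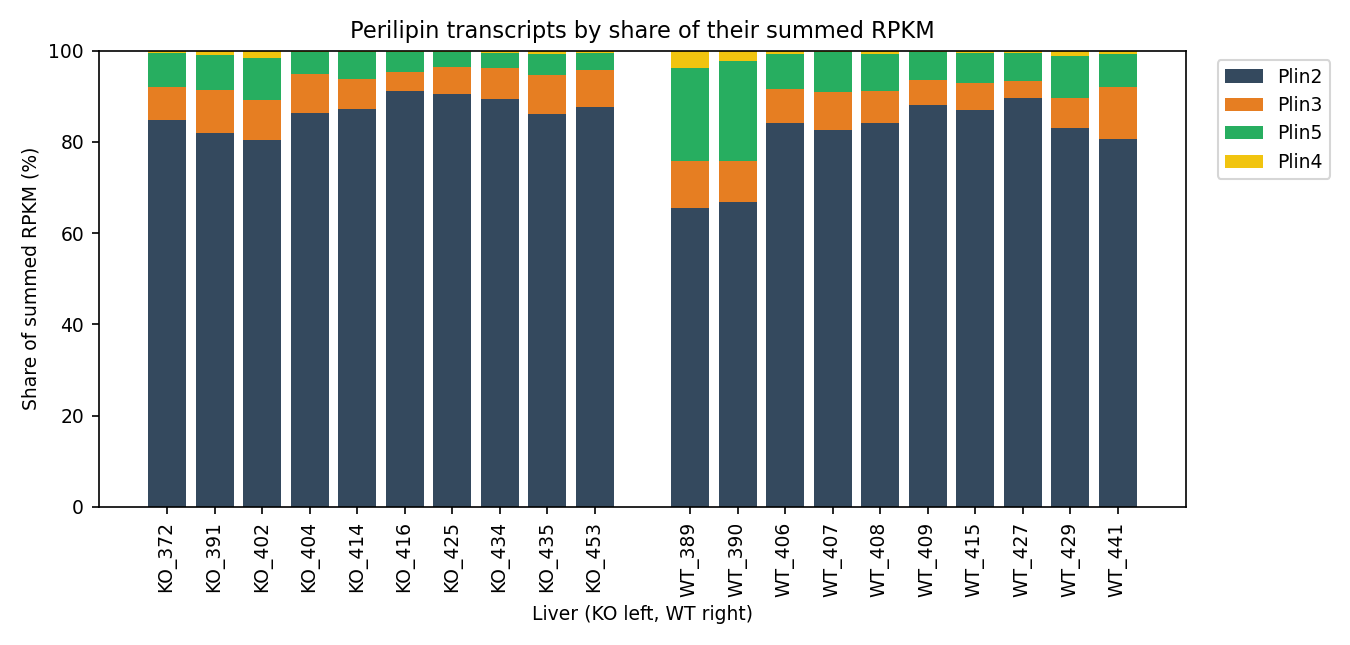
Share of each perilipin in the summed RPKM of Plin2, Plin3, Plin4 and Plin5 in each mouse, KO left of WT. Plin2 holds 80.5% to 91.2% in KO livers and 65.6% to 89.7% in WT livers.

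Per exon length, Plin2 made up 86.6% ± 3.46 of the summed RPKM of the 4 perilipins in KO livers and 81.2% ± 8.38 in WT livers (SD, n = 10 each). The sum itself was 553 ± 118 RPKM in KO and 311 ± 76.0 RPKM in WT. Plin5 held 5.42% ± 2.02 in KO and 10.2% ± 5.79 in WT, and 2 WT mice, WT_389 and WT_390, stood apart at 20.3% and 21.8%. The log2 ratio of Plin5 to Plin2 in a mouse, which hardly depends on the library scaling, was -3.96 ± 0.570 in KO and -3.02 ± 0.814 in WT. The difference of -0.94 gave p = 0.00433 and an adjusted p of 0.0120 over 9 ratios (two-sided permutation test), and 7 of 10 KO livers lay below the lowest WT liver. The ratio of Plin2 to Plin3 differed by 0.10 and that of Plin4 to Plin2 by -0.73, with adjusted p of 0.667 and 0.192 (permutation test).

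Among the CIDE genes, Cidec, whose protein gathers lipid into large droplets and is abundant in white fat, had the largest fold change of the tested members. It had 18.3, 56.7 and 129 CPM in KO livers (lowest, median, highest), against 2.72, 4.21 and 6.54 CPM in WT livers. The log2 fold change was 3.78 (SE 0.30, adjusted p = 3.17e-09, edgeR), a 13.7-fold difference. The lowest KO liver was KO_391 and the highest KO_434, and the gene spans chromosome 6 from 113424636 to 113435755 in 6 exon blocks. Leaving out any 1 mouse kept the log2 fold change between 3.60 and 3.91. Cidec has 2 annotated starts, both shown because it moved most.
Cidec start 1: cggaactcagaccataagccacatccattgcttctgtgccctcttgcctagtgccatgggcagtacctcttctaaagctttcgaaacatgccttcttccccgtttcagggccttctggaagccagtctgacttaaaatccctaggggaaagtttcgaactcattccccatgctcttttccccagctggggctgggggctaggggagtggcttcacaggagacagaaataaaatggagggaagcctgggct
Cidec start 2: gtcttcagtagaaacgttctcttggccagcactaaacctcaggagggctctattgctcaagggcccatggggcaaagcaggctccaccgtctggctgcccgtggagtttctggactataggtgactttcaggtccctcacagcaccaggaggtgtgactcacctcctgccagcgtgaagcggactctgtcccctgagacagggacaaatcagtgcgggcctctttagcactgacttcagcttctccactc
They lie on the minus strand of GRCm38.p6 at chr6:113435761-113436010 and chr6:113434765-113435014, and neither held TATAA.

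Cideb, which the liver uses to load triglyceride onto very-low-density lipoprotein, moved the other way with TMM. It had 36.6, 46.5 and 58.2 CPM in KO livers, against 61.6, 66.2 and 70.2 CPM in WT livers, with no overlap. The log2 fold change was -0.46 (SE 0.069, adjusted p = 6.9e-06, edgeR). This direction was not seen with library size alone (0.0092, adjusted p = 0.90). Cideb lies on chromosome 14 at 55754052 to 55758424, minus strand. Of its exon bases, 858 of 1176 (73.0%) overlap those of Nop9 on the other strand, whose own log2 fold change was -0.17 with TMM (adjusted p = 0.0097, edgeR) and 0.30 with library size alone. The sources used here do not give whether counting used the strand. Without strand, fragments on the shared exon cannot be told apart and would be left unassigned. Cidec relative to Cideb was 0.158 ± 0.951 in KO and -3.82 ± 0.411 in WT as a log2 ratio. The difference was 3.98 (adjusted p = 0.00027, permutation test), and the ratio was higher in every KO liver than in any WT liver.

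Cidea, a CIDE gene of brown fat that also appears in steatotic liver, was near the limit of detection. It had 41 counts in all in KO livers and 16 in WT livers, or 0.163 CPM (exact Poisson 95% interval 0.117 to 0.221) and 0.0824 CPM (0.0471 to 0.134), with 2 KO and 4 WT mice at 0. The intervals cover counting error only. Tested with no filter, its log2 fold change was 1.01 (adjusted p = 0.231, edgeR). The log2 ratio of Cidea to Cideb differed by 0.67, but Cidea lay below the 0.5 CPM added to each level and Cideb itself was at -0.46, so the ratio is not read as a difference in Cidea.

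Pnpla2, the lipase (chromosome 7, 141455188 to 141460743, plus strand, 10 exon blocks), had 95.7, 153.8 and 174.9 CPM in KO livers, against 92.0, 126.1 and 171.3 CPM in WT livers. The log2 fold change of 0.22 (SE 0.12, adjusted p = 0.118, edgeR) did not pass. Of 20 fits that each left out 1 mouse, 19 did not pass either. The 1 that passed left out KO_404, the lowest KO liver for Pnpla2 (0.30, adjusted p = 0.0200, edgeR). Its inhibitor Hilpda, a small protein induced by hypoxia (chromosome 6, 29272488 to 29275449, plus strand), had 1.96, 5.65 and 12.5 CPM in KO livers, against 1.23, 1.85 and 2.79 CPM in WT livers. Its log2 fold change was 1.54 (SE 0.28, adjusted p = 7.32e-05, edgeR), and 8 of 10 KO livers lay above the highest WT liver. Hilpda relative to Pnpla2 was -4.74 ± 0.817 in KO and -5.73 ± 0.501 in WT (log2 ratio, difference 0.99, adjusted p = 0.0120, permutation test). Abhd5, the coactivator, averaged 38.6 ± 4.39 CPM in KO and 28.5 ± 5.56 CPM in WT (log2 fold change 0.44, adjusted p = 0.000496, edgeR), and its log2 ratio to Pnpla2 differed by 0.22 (adjusted p = 0.192, permutation test). The log2 ratio of Plin5, which shields droplets from the lipase, to Pnpla2 differed by -0.24 (adjusted p = 0.192, permutation test).

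The level of G0s2 cannot be read from this table. It had 2 counts in KO and 8 in WT, and 838 of its 843 exon bases (99.4%) are shared with an entry on the other strand that carries no symbol. Fragments that fell on more than 1 gene were not assigned. Whether counting used the strand is not given, and the part of the shared exon in the low count was not tested. No ratio of G0s2 to Pnpla2 is read for that reason.

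**Figure D3:**
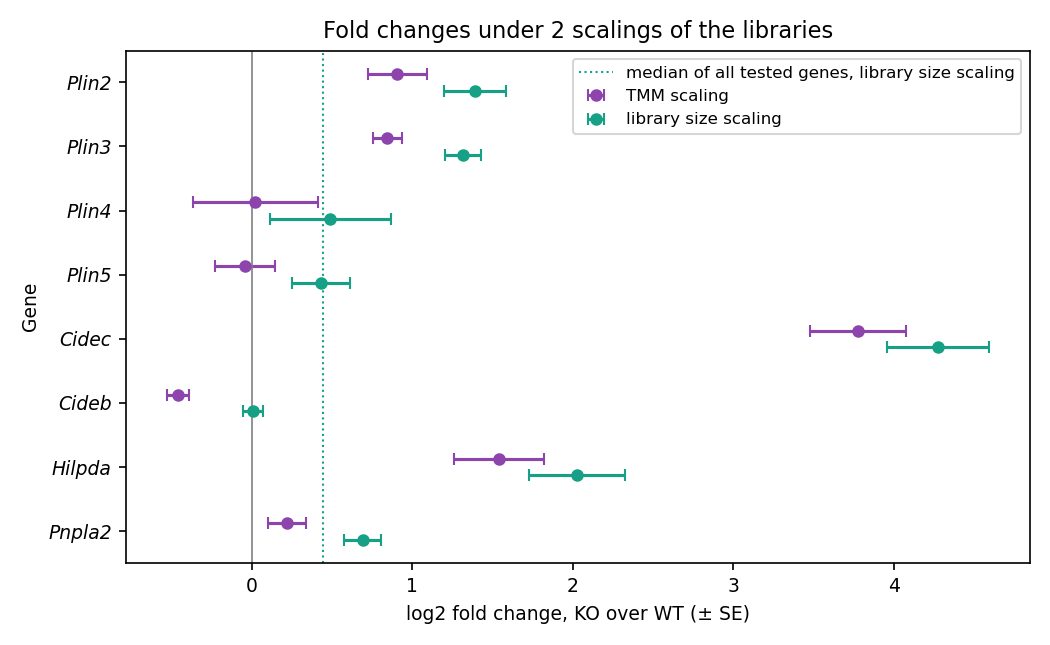
Log2 fold change, KO over WT, of the 8 tested genes with standard errors, under TMM and under library size alone. Plin2, Plin3, Cidec and Hilpda are above 0 under both scalings, and Cideb is below 0 with TMM alone.

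**Figure D4:**
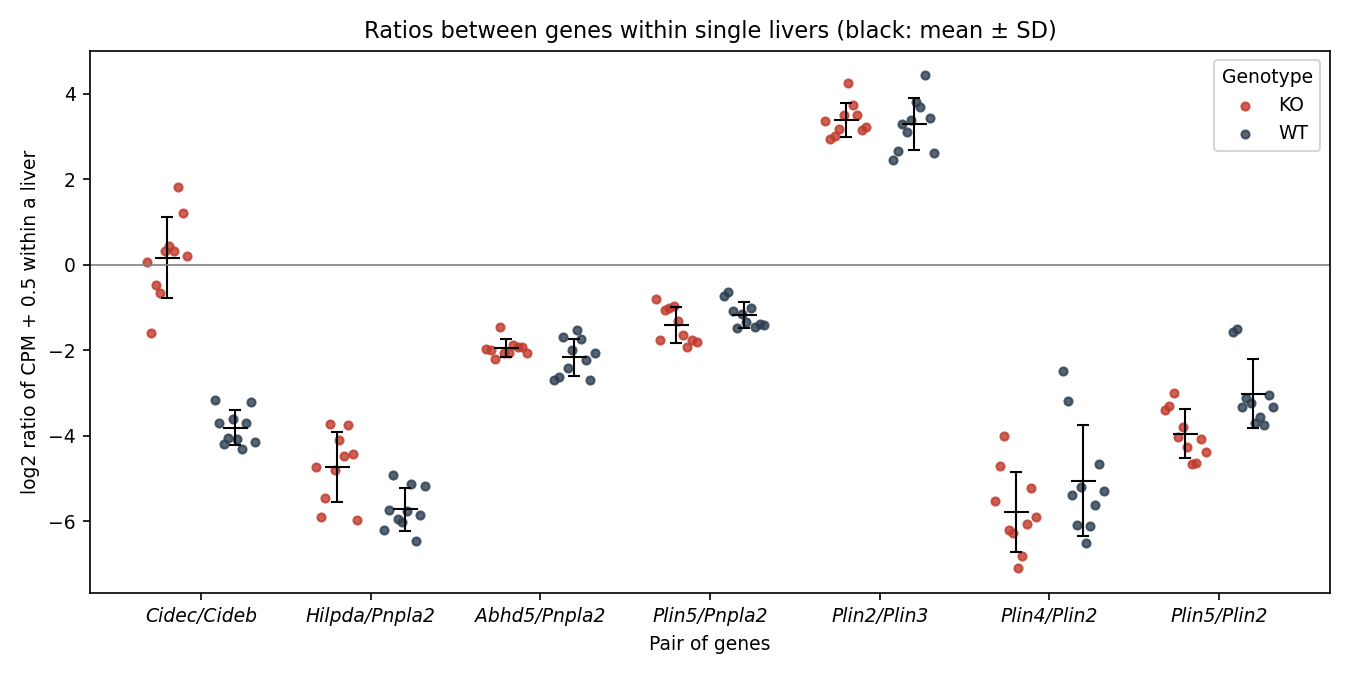
Log2 ratios between genes within a mouse, KO left of WT, from CPM plus 0.5. Cidec over Cideb is the ratio without overlap.

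Per length, the order in KO livers was Plin2 (482 RPKM), Pnpla2 (56.0), Cideb (40.9), Plin3 (39.4), Cidec (35.3), Plin5 (28.4), Hilpda (5.26) and Plin4 (3.00). In WT livers it was Plin2 (257), Cideb (56.0), Pnpla2 (48.1), Plin5 (29.3), Plin3 (21.9), Plin4 (2.93), Cidec (2.56) and Hilpda (1.80). Ranges of neighbours overlapped except below Plin2 and below Plin5 in KO, and below Plin2 and below Plin3 in WT, among the 8. The place of Cideb depends on the length used, since fragments on exon shared with Nop9 may not have been assigned. Per kilobase of its unshared exon, the level of Cideb was 151 ± 21.6 CPM for KO livers and 208 ± 9.57 CPM for WT livers (SD over 10 mice a group). With its full length, Cidec was the fifth gene in KO livers and the seventh in WT livers.

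Within a genotype, 56 relations between members over 10 mice each were computed, and none passed the adjusted p by Pearson's r while 9 had an unadjusted p under 0.05. By Spearman's rho 1 passed, Plin4 with Plin5 in WT (rho 0.92, p = 0.00047, adjusted p = 0.0263; r 0.87, p = 0.00126, adjusted p = 0.0706; permutation tests). Without WT_389 and WT_390, r was 0.67. Cideb and Cidec in KO had r -0.81 (p = 0.00558, adjusted p = 0.0781) and rho -0.70 (p = 0.0321, adjusted p = 0.225), and r -0.97 without KO_434 and KO_372 (permutation tests). The same pair in WT had r -0.14 (p = 0.693, adjusted p = 0.904) and rho -0.055 (p = 0.891, adjusted p = 0.973, permutation tests), and the difference between genotypes was not tested. Cidec and Pnpla2 in WT had r 0.84 (p = 0.00361, adjusted p = 0.0781) and rho 0.81 (p = 0.00721, adjusted p = 0.189), with r 0.81 without WT_429 and WT_389 (permutation tests).

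By deviations from the genotype means over 20 mice, a description across 10886 genes, Pnpla2 was most like Gpt2 (r 0.92), an alanine aminotransferase, and St3gal5 (0.91). Plin4 was most like Ivns1abp (0.90). Plin2 was most like Ppcs (0.87), an enzyme of coenzyme A synthesis, and also like Fgf21 (0.84), a liver hormone. Plin3 was most like Nagk (0.88), Plin5 like Fmo5 (0.86), Cidec like Prkcsh (0.84) and Hilpda like Cd63 (0.78).

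For the lists of other droplet genes, the tally of higher and lower calls rested on the scaling, and the shares over all genes tested were 28.2% higher and 31.0% lower with TMM. With library size alone (68.4% and 6.71% over all genes), 0 genes of the droplet assembly, other surface, lipolysis, lipophagy, transcription factor, PPAR target and hypoxia lists were lower (edgeR, and 0 at an unadjusted p under 0.05). Of 11 tested genes of droplet assembly, 4 were higher and 3 lower in KO with TMM, with a median log2 fold change of 0.015 against -0.025 over all genes, and 10 were higher with library size alone. Acsl3, an acyl-CoA synthetase of new droplets, averaged 40.5 ± 11.4 CPM in KO and 14.0 ± 5.56 CPM in WT (1.53, adjusted p = 8.33e-06, edgeR), and Fitm2, a droplet budding factor, 30.0 ± 3.93 CPM in KO and 17.7 ± 6.80 CPM in WT (0.76, adjusted p = 0.000372, edgeR). Aup1 was at -0.33 with TMM and 0.14 with library size alone. Of 16 tested genes for other surface proteins, 6 were higher and 4 lower with TMM, and 13 were higher with library size alone. Among these genes, Rdh10, a retinoid enzyme, was at 0.46 with TMM. Dhrs3, also a retinoid enzyme, was at -0.61 with TMM and -0.14 with library size alone (adjusted p = 0.163, edgeR).

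Of 13 tested genes of neutral lipolysis, 5 were higher and 4 lower in KO with TMM (median -0.057). With library size alone, 10 were higher (median 0.41 against 0.44 over all genes). The shares over all tested genes were 28.2% higher and 31.0% lower with TMM, and 68.4% higher with library size alone. Lipa, the lysosomal acid lipase, averaged 291 ± 45.7 CPM in KO and 155 ± 34.5 CPM in WT (log2 fold change 0.91, adjusted p = 7.12e-07, edgeR). Abhd6, a monoacylglycerol lipase, was at 0.61. Aadac, an esterase of the endoplasmic reticulum, was at -0.51 with TMM and -0.050 with library size alone. Of 8 genes of lipophagy, 2 were higher and 3 lower with TMM, and 5 were higher with library size alone. Sqstm1, an autophagy adaptor, was at 1.18, and Lamp2, a lysosomal membrane protein, at -0.46 with TMM and 0.0089 with library size alone.

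**Figure D5:**
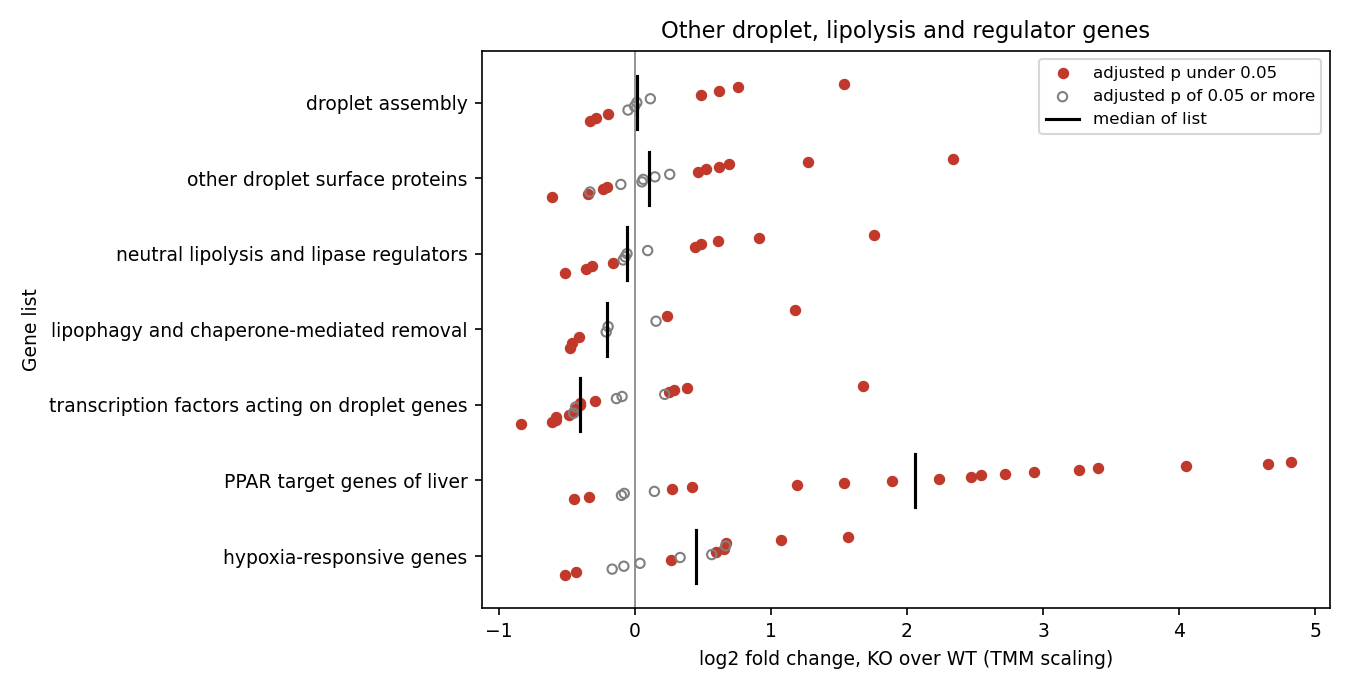
Log2 fold changes, KO over WT, of the tested genes in each list, with the median of the list. PPAR target genes have a median of 2.06 against -0.025 over all genes.

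Of 19 transcription factors known to act on droplet genes, 4 were higher and 10 lower with TMM. With library size alone, 7 were higher and 0 lower (edgeR, and 0 at an unadjusted p under 0.05). Over all tested genes, 28.2% were higher and 31.0% lower with TMM, and 68.4% and 6.71% with library size alone. Pparg, a nuclear receptor that activates Cidec, averaged 16.3 ± 4.20 CPM in KO and 5.09 ± 1.15 CPM in WT (1.67, adjusted p = 1.08e-08, edgeR). Hif1a, the hypoxia factor, was at 0.38. Nr1h3, the oxysterol receptor LXR alpha, was at -0.45 with TMM and 0.023 with library size alone. Cebpa, a factor of hepatocyte and adipocyte differentiation, was at -0.49 with TMM and -0.015 with library size alone. Of 20 PPAR target genes of liver, 15 were higher and 2 lower with TMM (median 2.06), and 18 were higher with library size alone. Of 14 tested hypoxia-responsive genes, 6 were higher and 2 lower with TMM (median 0.45), and 10 were higher with library size alone. Ndrg1 was at 1.57 and Egln3 at 0.67, while Vegfa was at -0.43 with TMM and 0.038 with library size alone.

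In the authors' deposited table of 12820 genes, Cidec had a log2 fold change of 3.38 with a false discovery rate listed at 0. The authors' deposited table gave Hilpda 1.08, Plin2 0.94, Plin3 0.83 and Cideb -0.46, with false discovery rates between 0.000733 and 0.0187. Mean signals listed there were 60.1 in KO and 4.36 in WT for Cidec, and 5.82 and 1.99 for Hilpda. The listed fold changes of Cidec and Hilpda are not the log ratios of these means, so they are not the same measure as the edgeR values. For Pnpla2, Plin4 and Plin5 the authors' deposited table listed rates of 0.146, 0.277 and 0.976.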

How the data were processed

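The members, lists and tests were chosen with earlier results of these data known. Per the file headers, the authors deposited raw counts per gene with Entrez identifiers and mm10 coordinates, a normalized signal, RPKM and tables of their own comparison with log2 fold changes, p-values and other statistics. HISAT2 2.0.5 and DESeq2 are named in the submitters' processing notes, which give no role for either. The deposited signal was 0.99 to 1.01 times the CPM computed here from the counts with TMM-corrected library sizes. The deposited RPKM were used for levels per length. In the deposited alignment statistics, multi-mapping fragments were 2.09% to 8.46% of each KO library (median 2.83%) and 3.38% to 14.1% of each WT library (median 10.8%). Fragments left unassigned as ambiguous between genes had a median of 3.58% in KO and 6.47% in WT. Another 17 columns of statistics were not used.

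Counts were tested with edgeR 4.0.16 (TMM, robust quasi-likelihood, minimum count 10, minimum total 15) in R 4.3.3, with limma 3.58.1 and DESeq2 1.42.0 as alternatives. The fit was also tested on simulated data. Few genes changed there, in random directions, so the simulation does not test the assumption of TMM for these data. Untested genes held 0.0858% of fragments. Ratios used CPM plus 0.5 and 100000 permutations. Genes named are the members, Hsd17b12, up to 4 of smallest adjusted p in each list, Abhd5 as a ratio partner, and the most similar genes, of which some are not reported here. Labels do not say whether samples are separate extractions. The tests use the spread between samples, 1 a mouse, in which mouse, extraction and library cannot be told apart.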

Additional observations from a re-analysis of the deposited data

Results flagged for a closer look

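In 32 groups of 10 mice tested for a value far from the others, 2 were found, where chance flags about 1 in 20 groups. Plin4 was 41.3 CPM in KO_402, and the next KO liver had 21.7 CPM. Without KO_402 the log2 fold change of Plin4 was -0.22. The log2 ratio of Abhd5 to Pnpla2 was -1.45 in KO_404, and the next KO liver had -1.87.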

How the results depend on the processing

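Hsd17b12, Plin2, Plin3, Cidec and Hilpda kept their direction and call under all alternatives run, with log2 fold changes of -1.70 to -1.19, 0.83 to 1.39, 0.80 to 1.31, 3.22 to 4.28 and 1.05 to 2.02. With library size alone, 9355 genes were higher and 917 lower in KO, 0 members were lower, Cideb was at 0.0092 and Plin5 at 0.43, and Pnpla2 was at 0.69 (adjusted p = 1.17e-05, edgeR). The scaling constant is what differs there. Leaving out 1 mouse moved Plin4 between -0.22 and 0.34, Plin5 between -0.12 and 0.090, and the number of relations past the threshold between 0 and 2. That number was 2 without KO_372 and without KO_435, and 1 without WT_441. Removing KO_391 and WT_389 together, chosen after seeing the data, gave Plin4 0.36 and Plin5 0.083. The cause was not tested. No paired analysis was possible because KO and WT mice share no number in the labels. Low counts limit Cidea and G0s2.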

Other observations

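In the authors' deposited table of gene ontology terms, triglyceride catabolic process (23 annotated genes) had a false discovery rate of 0.0159 and regulation of lipid storage 0.0229. In the authors' deposited table, lipid droplet organization (18 annotated genes) was at 0.980 and the lipid droplet component (69 annotated genes) at 0.320.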
